A study of Mus musculus with 9 samples.

Results

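The genes described here encode the enzymes that modify and cross-link collagen: the catalytic subunits of prolyl 4-hydroxylase (P4ha1, P4ha2, P4ha3), the lysyl hydroxylases (Plod1, Plod2, Plod3) and the lysyl oxidases (Lox, Loxl1, Loxl2, Loxl3). They were chosen by gene symbol, without regard to their values, and every probe set that the platform annotation assigns to a single one of these genes was used. Of the 10 genes, 9 had such a probe set, 15 probe sets in all out of the 34944 single-gene probe sets of the table. The remaining gene, Loxl2, is covered by probe sets annotated to more than one gene and is given no value. In a test of 18194 genes, each gene was represented by its brightest probe set on average.

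RNA came from SCCVII cells, a mouse line from an oral squamous cell carcinoma that arose spontaneously in CH3 mice, and was hybridized to 9 Affymetrix expression arrays, 3 per group. IR denotes lines recovered from tumours that the parental cells had formed in stroma irradiated beforehand, NIR denotes lines recovered from tumours in stroma left without irradiation, and PA is the parental line itself, kept in standard culture. The labels call the IR tumours strongly hypoxic and the IR lines invasive and metastatic after expansion in normoxic culture, and call the NIR tumours and lines poorly invasive and metastatic. Both derived groups passed through a mouse before culture and PA did not, and although the samples are described as independent, it is not said whether the 3 arrays of a group are separate tumours, lines or dishes, so p-values measure the spread between these samples, which may be technical.

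Collagen chains are hydroxylated inside the endoplasmic reticulum. Prolyl 4-hydroxylase, built from a P4ha subunit and the disulfide isomerase P4hb, forms the hydroxyproline that holds the triple helix together, and the lysyl hydroxylases form the hydroxylysine on which sugars and cross-links are placed. Both families need oxygen, iron, 2-oxoglutarate and ascorbate. After secretion the lysyl oxidases, copper enzymes, oxidise lysine and hydroxylysine so that collagen and elastin fibres become cross-linked. P4ha1, P4ha2, Plod2 and Lox are known targets of the hypoxia-inducible factors, and Lox and Plod2 are known from human and mouse tumour models of stiff, invasive stroma.

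Promoter sequences are shown for the prolyl 4-hydroxylase subunits, which differed in the direction of their values between IR and NIR, and for Plod1, the member with the largest difference. Capitals mark ACGTG and GCGTG, the core letters of the hypoxia response element, read on both strands (CACGT and CACGC on the opposite strand). The sequences are RefSeq's for GRCm38.p6, 5′ to 3′ on the gene's strand, and stop before the first annotated base of the gene.
P4ha1, chr10:59323046-59323196, plus strand: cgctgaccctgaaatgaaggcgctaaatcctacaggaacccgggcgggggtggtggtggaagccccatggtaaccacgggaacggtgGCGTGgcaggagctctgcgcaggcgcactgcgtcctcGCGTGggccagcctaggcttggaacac
P4ha2, chr11:54100674-54100923, plus strand: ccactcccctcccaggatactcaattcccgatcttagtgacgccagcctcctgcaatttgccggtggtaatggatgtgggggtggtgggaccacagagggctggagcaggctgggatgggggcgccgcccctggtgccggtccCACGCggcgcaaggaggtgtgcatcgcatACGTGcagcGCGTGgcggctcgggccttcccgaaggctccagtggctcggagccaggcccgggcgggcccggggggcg
P4ha3, chr7:100285270-100285488, plus strand: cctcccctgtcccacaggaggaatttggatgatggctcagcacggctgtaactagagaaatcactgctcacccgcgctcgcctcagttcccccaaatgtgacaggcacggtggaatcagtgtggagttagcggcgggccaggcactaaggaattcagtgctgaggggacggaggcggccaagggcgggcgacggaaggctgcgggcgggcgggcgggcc
Plod1, chr4:147936777-147937026, minus strand: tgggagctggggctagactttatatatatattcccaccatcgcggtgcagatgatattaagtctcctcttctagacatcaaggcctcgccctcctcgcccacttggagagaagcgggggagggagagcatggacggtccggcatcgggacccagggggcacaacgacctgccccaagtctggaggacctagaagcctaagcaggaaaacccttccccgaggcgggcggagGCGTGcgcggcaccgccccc

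Lox lies on chromosome 18, whose windows were not read for the members, so no motif count is given for it. Of the 10 genes, 5 had a window that was read in this RefSeq table, the 4 shown and Plod3. The shares over all windows given below leave out no chromosome. Over the whole 250 bases before the tabulated start, ACGTG was present in 3 of the 5 windows and GCGTG in 4 of the 5, and P4ha3 held neither. The Plod3 window, not printed, held 1 ACGTG and 3 GCGTG. Plod3 had a lower mean in IR than in NIR (difference -0.15), as P4ha3 had, and neither difference was called. With no difference called, whether the motifs go with the direction of the values cannot be told. Among all 32851 windows of the same length, 16.6% held ACGTG, 28.2% held GCGTG and 38.6% held at least one of them. A match describes letters and is not a binding site.

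Across the series, no member passed the test in any of the 3 comparisons, and the values below are therefore given as differences with their intervals. Of 9 members, 0 were called in IR against NIR by limma at a Benjamini-Hochberg adjusted p below 0.05, where 1.65% of all genes were called. In IR against PA, 0 of 9 were called against 1.06% of all genes, and in NIR against PA, 0 of 9 against 1.30%. With background shares this low, a count of 0 among 9 genes does not set the members apart from other genes. At an unadjusted limma p below 0.05 there were 2 members in IR against NIR (P4ha2 and P4ha3), 1 in IR against PA (P4ha2) and 0 in NIR against PA. Of the 15 probe sets, 0 were called in each comparison when every probe set was tested, against backgrounds of 0.881%, 0.690% and 0.836% of probe sets in IR against NIR, IR against PA and NIR against PA.

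**Figure D1:**
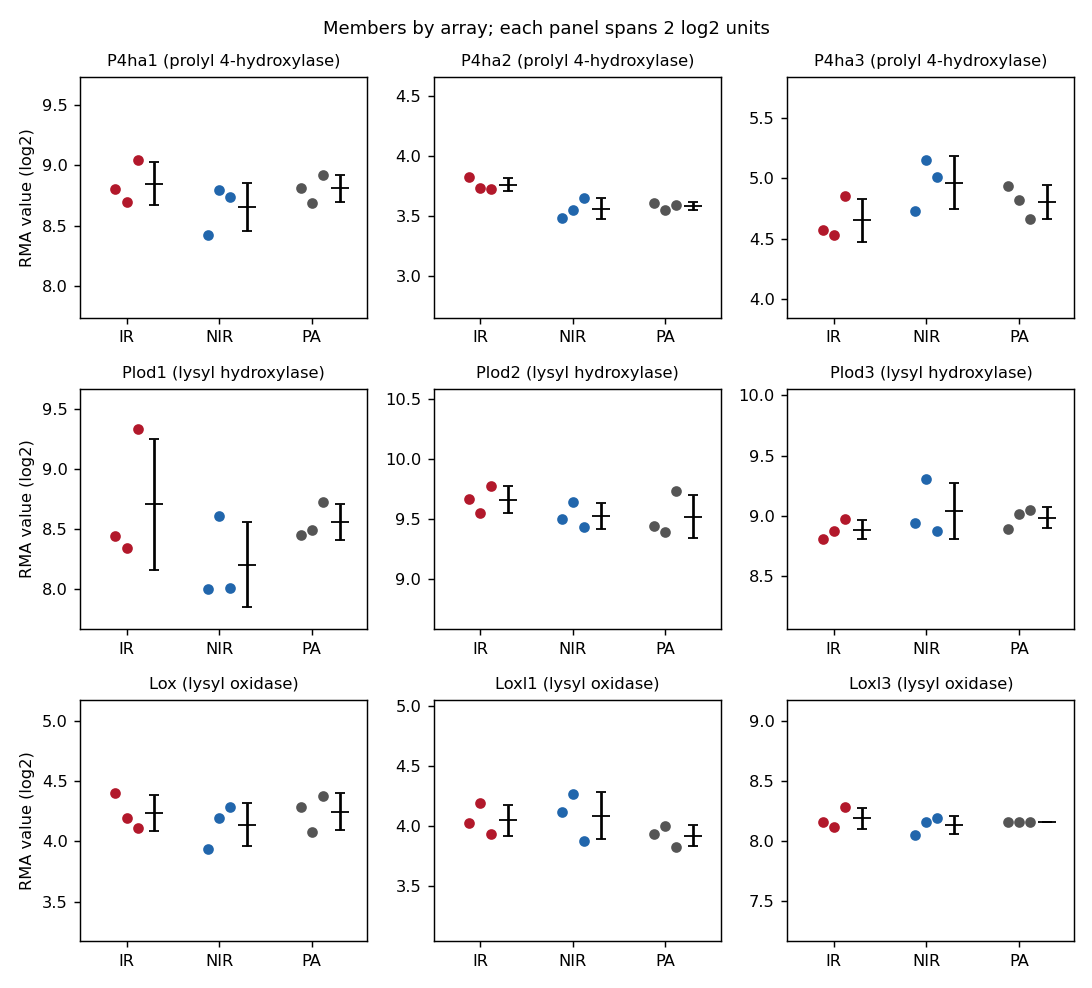
RMA values (log2) of the 9 measured members, with a point per array, IR, NIR and PA from left to right, and the mean with its SD (n = 3) beside each group. The groups overlap in every panel except P4ha2, whose 3 IR arrays lie above all NIR and PA arrays, and IR3 is the highest Plod1 point at 9.33.

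The catalytic subunits of prolyl 4-hydroxylase did not share a direction between IR and NIR. P4ha1, the main subunit in most cells, read 8.80, 8.70 and 9.04 in IR, 8.42, 8.79 and 8.74 in NIR and 8.82, 8.69 and 8.92 in PA (RMA values, log2). The groups overlapped, with NIR1 the lowest array and IR3 the highest. The difference between IR and NIR was 0.20 (SE 0.12, 95% interval -0.058 to 0.45, limma adjusted p = 0.463). A rise above 1.37-fold lay outside the interval of this probe set, though not outside that of the second probe set given below. Against PA, P4ha1 differed by 0.039 in IR and by -0.16 in NIR (limma adjusted p = 0.970 and 0.650). The second P4ha1 probe set (1426519_at) read 7.72, 7.68 and 8.14 in IR, 7.72, 7.51 and 7.20 in NIR and 7.95, 7.80 and 7.78 in PA. On this probe set all NIR arrays lay below all PA arrays, and the difference between NIR and PA was -0.37 (95% interval -0.68 to -0.053, limma adjusted p = 0.370). Its difference between IR and NIR was 0.37 (95% interval 0.056 to 0.68, limma adjusted p = 0.264), larger than on the brighter probe set and in the same direction.

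P4ha2, an alternative catalytic subunit, read 3.83, 3.73 and 3.72 in IR, 3.48, 3.55 and 3.65 in NIR and 3.60, 3.55 and 3.59 in PA. Every IR array was above every NIR and PA array, yet all 9 values lay below 4.49, the median over all probe sets, so the signal was dim. The differences were 0.20 against NIR (SE 0.070, 95% interval 0.047 to 0.36, limma adjusted p = 0.181) and 0.18 against PA (95% interval 0.025 to 0.33, limma adjusted p = 0.465). By the brightest probe set of each gene, P4ha2 was the only member of 9 whose arrays did not overlap between IR and NIR, where this was true of 18.1% of all genes, and between IR and PA, where it was true of 14.7%. In its direction, with IR higher, these shares were 8.69% and 7.26% of all genes. By the same probe sets, 0 of 9 members separated NIR from PA, against 15.5% of all genes, while the second P4ha1 probe set did.

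P4ha3, the least widely expressed subunit, had the opposite sign. Its values were 4.58, 4.53 and 4.85 in IR, 4.73, 5.16 and 5.01 in NIR and 4.94, 4.82 and 4.66 in PA. IR3 lay above NIR1, so IR and NIR overlapped at these fairly low values, which were above the median probe set but close to it. The IR minus NIR difference was -0.31 (SE 0.12, 95% interval -0.58 to -0.045, limma adjusted p = 0.232). Against PA the differences were -0.15 in IR and 0.16 in NIR (limma adjusted p = 0.819 and 0.667).

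Among the lysyl hydroxylases, Plod1 showed the widest spread of any member. Plod1, which hydroxylates lysines within the collagen helix, read 8.44, 8.34 and 9.33 in IR, 7.997, 8.61 and 8.01 in NIR and 8.45, 8.49 and 8.72 in PA. One array stood out in each derived group, IR3 as high in IR and NIR2 as high in NIR, and the groups overlapped. The SD of Plod1 in IR was 0.55, larger than that of 99.8% of genes, and in NIR it was 0.35, larger than that of 98.0%. Its difference between IR and NIR was 0.50 (SE 0.23, 95% interval -0.015 to 1.01, limma adjusted p = 0.331), the largest of the 9 members, and its interval reached from no change to a 2.02-fold rise. Without IR3 the difference was 0.19 (limma adjusted p = 0.727), and without NIR2 it was 0.70 (limma adjusted p = 0.212). Against PA, Plod1 differed by 0.15 in IR and by -0.35 in NIR (limma adjusted p = 0.923 and 0.606). Without IR3 the IR minus PA difference turned to -0.17. A second, dimmer Plod1 probe set (1445893_at) did not show the pattern, with group means of 5.00 in IR, 5.07 in NIR and 5.06 in PA.

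Plod2, which hydroxylates the lysines of the collagen telopeptides and thereby sets the kind of cross-link, was slightly higher in IR on both of its probe sets. The brighter one (1416687_at) read 9.67, 9.55 and 9.77 in IR, 9.51, 9.64 and 9.44 in NIR and 9.44, 9.40 and 9.73 in PA. The groups overlapped, and the differences were 0.13 against NIR (95% interval -0.086 to 0.36, limma adjusted p = 0.581) and 0.14 against PA (95% interval -0.081 to 0.36, limma adjusted p = 0.789). The second probe set (1416686_at) read 8.63, 8.61 and 8.97 in IR, 8.45, 8.56 and 8.52 in NIR and 8.58, 8.46 and 8.59 in PA. Here all IR arrays lay above all NIR and PA arrays, by a narrow margin for IR2. By the brightest probe set of each gene, 18.1% of all genes did not overlap in either direction between IR and NIR, and 14.7% between IR and PA. The share over all probe sets was not computed. The differences were 0.22 against NIR (95% interval 0.012 to 0.43, limma adjusted p = 0.320) and 0.19 against PA (95% interval -0.022 to 0.40, limma adjusted p = 0.697). NIR and PA differed by 0.0054 on the brighter Plod2 probe set (95% interval -0.22 to 0.23).

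Plod3, a lysyl hydroxylase that also transfers sugars to hydroxylysine, had its lowest mean in IR. It read 8.81, 8.88 and 8.97 in IR, 8.94, 9.30 and 8.87 in NIR and 8.89, 9.02 and 9.05 in PA. NIR2 was the highest array and the groups overlapped. The differences were -0.15 for IR minus NIR (95% interval -0.39 to 0.083, limma adjusted p = 0.553), -0.099 for IR minus PA and 0.052 for NIR minus PA (limma adjusted p = 0.887 and 0.900).

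**Figure D2:**
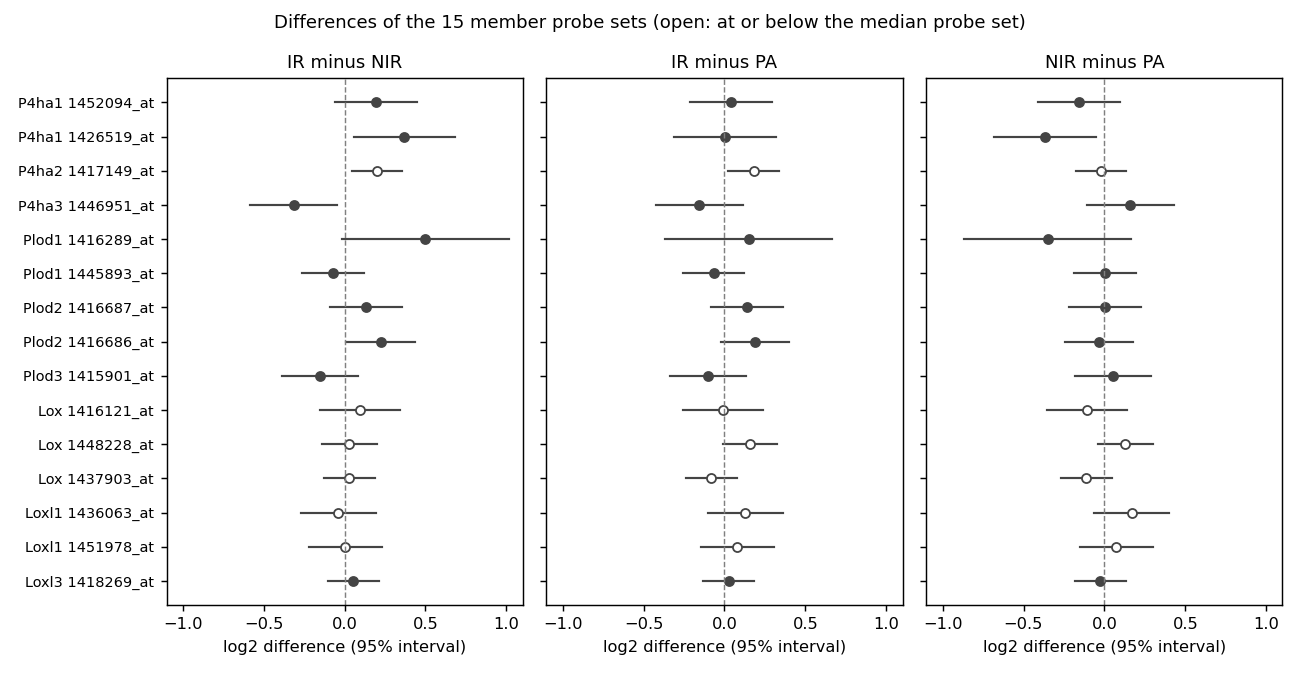
Log2 differences of the 15 member probe sets with 95% intervals from limma, for IR minus NIR, IR minus PA and NIR minus PA; open points mark probe sets whose mean is at or below the median probe set of 4.49. No probe set was called, and the widest interval is that of Plod1 1416289_at, -0.015 to 1.01 in IR minus NIR.

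Lox, the founding lysyl oxidase, was dim on all 3 of its probe sets. Its brightest probe set (1416121_at) read 4.41, 4.20 and 4.11 in IR, 3.94, 4.20 and 4.28 in NIR and 4.28, 4.08 and 4.38 in PA, all below the median probe set of 4.49. The groups overlapped, with differences of 0.097 for IR minus NIR (95% interval -0.15 to 0.34, limma adjusted p = 0.746), -0.0091 for IR minus PA and -0.11 for NIR minus PA (limma adjusted p = 0.994 and 0.769). The other Lox probe sets averaged 3.55 and 3.10 in IR, 3.52 and 3.07 in NIR and 3.39 and 3.18 in PA. At this signal a change in Lox RNA would be compressed toward 0 on the array, so these intervals bound the signal rather than the transcript.

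Loxl1, the family member tied to elastic fibres, was as dim. Its brighter probe set read 4.03, 4.19 and 3.93 in IR, 4.12, 4.27 and 3.88 in NIR and 3.94, 3.999 and 3.82 in PA, again with overlapping groups. The differences were -0.038 for IR minus NIR, 0.13 for IR minus PA and 0.17 for NIR minus PA (limma adjusted p = 0.913, 0.823 and 0.574). Its other probe set averaged 3.82 in IR, 3.81 in NIR and 3.74 in PA.

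Loxl3 was the one measured lysyl oxidase with a signal well above the median probe set. It read 8.16, 8.11 and 8.29 in IR, 8.05, 8.16 and 8.19 in NIR and 8.16, 8.16 and 8.16 in PA. The groups overlapped, and the differences were 0.053 for IR minus NIR (SE 0.072, 95% interval -0.10 to 0.21, limma adjusted p = 0.793), 0.027 for IR minus PA and -0.026 for NIR minus PA (limma adjusted p = 0.966 and 0.929). A change in Loxl3 signal above 1.16-fold in either direction lay outside its interval in IR against NIR. The PA values of Loxl3 had an SD of 0.00054, and PA1 and PA3 held the same value, 8.15966, which IR1 also read, so the repeat crossed groups. Repeated values are common in the deposited table: 60.6% of all probe sets, and 7 of the 15 member probe sets, held the same value to 9 decimals on 2 or more arrays.

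By group mean, IR was the highest group for P4ha1, P4ha2, Plod1, Plod2 and Loxl3, NIR for P4ha3, Plod3 and Loxl1, and PA for Lox. No neighbouring groups in these orders were separated by the test. The median difference of the 9 members was 0.097 in IR minus NIR, 0.039 in IR minus PA and -0.021 in NIR minus PA, beside medians of 0.0014, 0.0043 and 0.0046 over all genes. Of the 9, 6 were positive in IR minus NIR, 6 in IR minus PA and 4 in NIR minus PA. The comparisons share arrays, so these counts are not independent of each other.

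Single arrays carried much of this variation. IR3 was the highest of the 9 arrays for 4 of the 9 members, P4ha1, Plod1, Plod2 and Loxl3, where it was the highest for 15.8% of all genes. NIR1 was the lowest array for 5 of the 9, P4ha1, P4ha2, Plod1, Lox and Loxl3, against 12.9% of all genes. IR3 exceeded the mean of IR1 and IR2 by 0.94 for Plod1, 0.30 for P4ha3, 0.29 for P4ha1, 0.17 for Plod2, 0.15 for Loxl3 and 0.13 for Plod3. The offsets of the 3 members below the median probe set were -0.19 for Lox, -0.17 for Loxl1 and -0.058 for P4ha2, so that 6 of 9 members were positive, against 45.7% of all genes. The size of the Plod1 offset was larger than that of 99.8% of genes. For the other members this share ran from 31.1% for P4ha2 to 89.9% for P4ha3. The median size of this offset over all genes was 0.11. Without IR3 the IR minus NIR differences were 0.097 for P4ha1, 0.079 for Plod2 and 0.0034 for Loxl3 (limma adjusted p = 0.806, 0.839 and 0.992), while that of P4ha2 was 0.22 and that of P4ha3 -0.41 (limma adjusted p = 0.269 and 0.184).

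**Figure D3:**
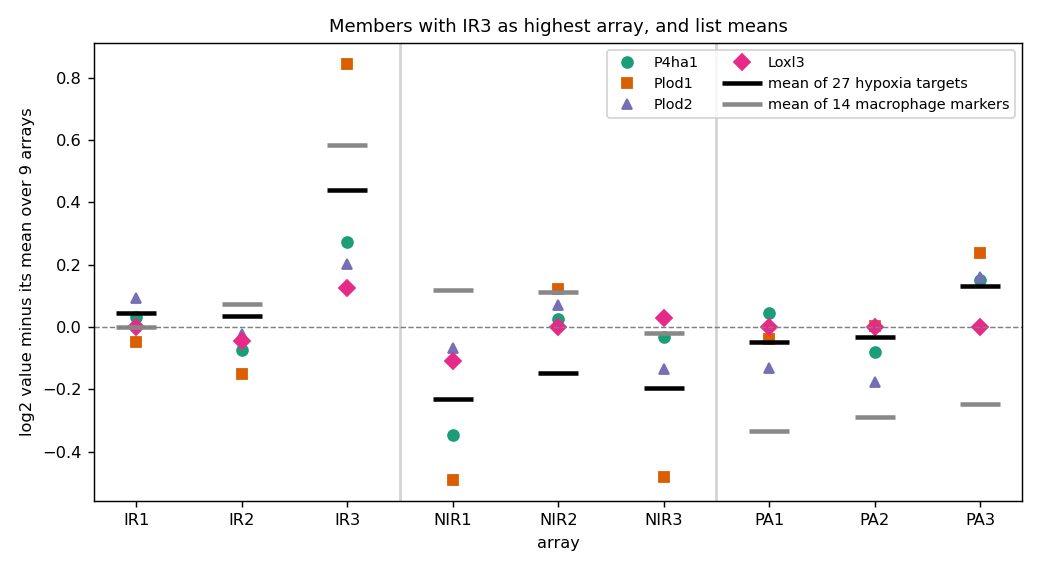
Log2 values on each array minus the mean over the 9 arrays, for the members whose highest array was IR3 and for the list means of 27 hypoxia targets and 14 macrophage markers. The members shown have IR3 highest because they were chosen so, and Plod1 has the largest offset there. The other members, highest on IR1 or NIR2, are not drawn. The drawn list means are also highest on IR3. Other lists are not drawn, and some of their means, such as that of the fibroblast markers, were highest on NIR2.

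Beside these values, hypoxia targets and some macrophage and fibroblast genes were also high on IR3. The mean of 27 known hypoxia targets outside the members was 8.54, 8.54 and 8.94 in IR, 8.27, 8.35 and 8.30 in NIR and 8.45, 8.47 and 8.63 in PA. The mean of 14 macrophage markers was 4.75, 4.82 and 5.33 in IR, 4.87, 4.86 and 4.73 in NIR and 4.41, 4.46 and 4.50 in PA. On IR3 the macrophage lysozyme Lyz2 read 8.25 beside 5.71 in IR1 and 5.78 in IR2, and its near-identical paralog Lyz1 read 8.30 beside 6.04 and 5.99. Cd68 read 5.83 on IR3 beside 4.81 in IR1 and 4.71 in IR2, and Tyrobp read 5.39 beside 4.85 and 4.72. Of the 14 markers, 9 had means above the median probe set, and the other 5, Adgre1, Ptprc, Itgam, Aif1 and Cd163, lay below it on all 9 arrays. Among the brighter markers, Csf1r was higher on IR1 than on IR3, and Fcer1g and Fcgr1 were higher on IR2. Cd14 and Mrc1 were higher on NIR1, at 7.80 and 5.57, than on IR3, at 7.46 and 5.41. Of the 14, 0 were called in IR against NIR, 1 rose in IR against PA and 2 rose in NIR against PA. The fibroblast genes Dpt and Lum read 7.30 and 6.49 on IR3, beside 5.53 and 5.95 in IR1 and 5.31 and 5.62 in IR2. On NIR1, Dpt and Lum were higher still, at 7.62 and 6.97. Of the other fibroblast markers, Dcn and Pdgfra were highest of the IR arrays on IR3, and Col1a2 and Postn lay between. Col1a1, Col3a1, Acta2, Pdgfrb, Thy1, Fap and Twist2 were lowest of the IR arrays on IR3. For Col1a1, IR3 read 6.96 beside 7.46 in IR1 and 7.28 in IR2. The part of these cells in the members' values was not tested, and in bulk RNA a change in the number of cells of a type cannot be told apart from a change in RNA per cell.

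Fibroblasts are a rich source of these enzymes. The mean of 13 fibroblast markers was 7.18 ± 0.094 for the IR arrays, 7.22 ± 0.17 for the NIR arrays and 6.86 ± 0.086 for the PA arrays (SD, n = 3 per group), with 0 called in IR against NIR, 1 higher in IR than in PA and 2 higher in NIR than in PA. The parental culture itself read 11.09 to 11.50 for Col1a2 and 9.05 to 9.20 for Pdgfra. Of the 13 markers, 10 had means above the median probe set, and Thy1 and Fap lay below it on every array. Dcn read 8.88 to 9.38 in IR and 8.33 to 8.93 in NIR, against 7.66 to 8.01 in PA. Among the 12 listed squamous and epithelial markers, the keratins Krt8 and Krt18 were the brightest. Krt8 read 12.61 to 12.85 and Krt18 11.16 to 11.996 over the 9 arrays. Krt5, Krt6a, Epcam, Sfn, Jup and Pkp3 were also above the median probe set, from 4.80 for Krt5 to 7.17 for Pkp3, and the other 4 of 12, Krt14, Trp63, Cdh1 and Dsp, lay below it on all 9. Of the 12, 1 was higher in IR than in NIR, 1 was higher in IR than in PA and 0 were called in NIR against PA. Lymphocyte, endothelial, and muscle, fat and red cell markers gave 0 calls in any comparison, over 8 measured genes each.

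Among the partners of these enzymes in collagen maturation, 1 gene passed the test. Of 27 listed factors, which include chaperones, prolyl 3-hydroxylases, glycosyltransferases and procollagen proteases, 24 were measured, and 0 were called in IR against NIR, 1 in IR against PA and 0 in NIR against PA. The list medians were 0.011, 0.0062 and -0.032 in these comparisons. The called gene was Pxdn, a peroxidase that cross-links collagen IV, at 8.26 in IR against 7.87 in PA (difference 0.39, SE 0.076, limma adjusted p = 0.0322). The Pxdn call was lost when any one IR or PA array was left out (limma adjusted p reaching 0.181) and with the replicate number as a block. Fitting on the compared arrays alone also ended it (limma adjusted p = 0.0564). P4hb, the partner of the P4ha subunits, averaged 12.41 in IR, 12.44 in NIR and 12.40 in PA. Loxl4, the remaining lysyl oxidase, averaged 6.85 in IR, 6.87 in NIR and 7.08 in PA, and was not called. Serpinh1, the collagen chaperone HSP47, averaged 11.78 in IR, 11.55 in NIR and 11.67 in PA (IR minus NIR 0.23, limma adjusted p = 0.210).

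Among the collagen and elastin substrates, the called genes were 2 collagen VI chains, Col6a1 and Col6a3. Of 25 listed collagen, elastin and elastic fibre genes, 24 were measured, and 1 rose in IR against NIR, 2 in IR against PA and 1 in NIR against PA, with 0 falling in each. Col6a3, a chain of beaded-filament collagen VI, averaged 7.36 in IR, 6.84 in NIR and 5.78 in PA. Its rises were 1.58 in IR against PA (limma adjusted p = 5.83e-05) and 1.06 in NIR against PA (limma adjusted p = 0.000363). The smaller rise in IR against NIR (0.52, limma adjusted p = 0.0440) no longer passed when any array other than NIR2 was left out, with limma adjusted p reaching 0.112. Nor did this rise pass with every probe set tested or on the compared arrays alone (limma adjusted p = 0.0566 and 0.163). Col6a1 averaged 7.33 in IR against 6.30 in PA (1.03, limma adjusted p = 0.0123), which no longer passed when PA1 or PA2 was left out, with limma adjusted p reaching 0.0867. The medians of this list were 0.046, 0.12 and 0.12 in IR minus NIR, IR minus PA and NIR minus PA.

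**Figure D4:**
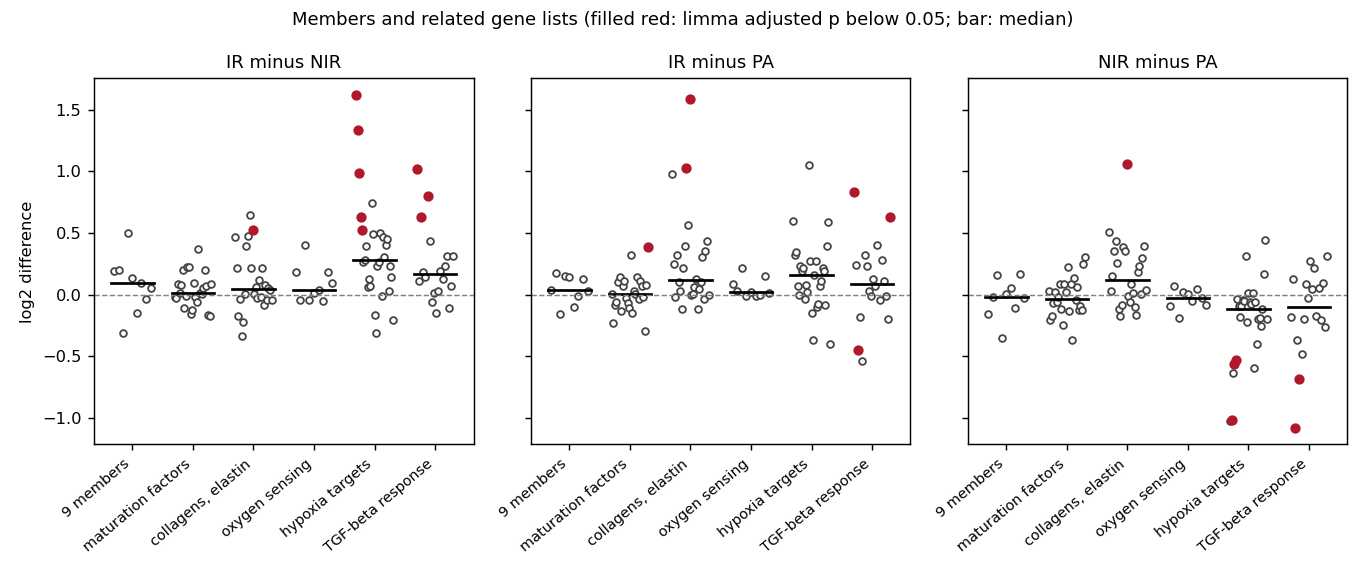
Log2 differences of the 9 members and of 5 related gene lists in each comparison, with a point per gene, filled red where the limma adjusted p was below 0.05, and a bar at the list median. No member is filled, and Plod1 in IR minus NIR, at 0.50, is the member farthest from 0; the filled points farthest from 0 are Bnip3 at 1.62 in IR minus NIR and Col6a3 at 1.58 in IR minus PA.

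Other oxygen-dependent enzymes and regulators of oxygen sensing gave 0 calls of 9 in each comparison. Egln3, a prolyl hydroxylase of the hypoxia-inducible factors that their activity induces, averaged 9.35 in IR, 8.94 in NIR and 9.13 in PA, and its IR minus NIR difference of 0.40 missed the threshold (limma adjusted p = 0.0871). Of 27 measured hypoxia targets outside the members, 5 rose in IR against NIR and 0 fell, 0 were called in IR against PA, and 3 fell in NIR against PA and 0 rose. Of all genes, 0.786% rose and 0.863% fell in IR against NIR, 0.297% rose and 0.758% fell in IR against PA, and 0.379% rose and 0.918% fell in NIR against PA. The medians of the hypoxia list were 0.28, 0.16 and -0.12. Bnip3, a mitophagy receptor, averaged 10.39 in IR, 8.77 in NIR and 9.79 in PA. Its IR minus NIR difference was 1.62 (limma adjusted p = 0.00985). The 22 targets not called in IR against NIR differed by -0.31 (Pfkfb4) to 0.74 (Aldoc). Whether the members differ from this list was not tested. Pdk1, a kinase that restrains pyruvate dehydrogenase, was 1.34 higher in IR than in NIR (limma adjusted p = 0.0172), which no longer passed when NIR1 or NIR2 was left out (limma adjusted p reaching 0.0545). With probe sets averaged per gene the Pdk1 difference was 0.79 (limma adjusted p = 0.0595), and without probe sets marked for several transcripts it was 0.79 (limma adjusted p = 0.0853). Fitted on the compared arrays alone, neither Pdk1 nor Bnip3 passed in IR against NIR (limma adjusted p = 0.110 and 0.0559). Pdk1 was also among the falls in NIR against PA (-1.02, limma adjusted p = 0.0470), a call lost under 11 alternatives. With probe sets averaged per gene, that difference was -0.57 (limma adjusted p = 0.216).

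TGF-beta is a known inducer of lysyl oxidases and lysyl hydroxylases. A list of TGF-beta response genes, which also held TGF-beta ligands and receptors, had 18 measured genes. Of these, 3 rose in IR against NIR and 0 fell, and 2 rose and 1 fell in IR against PA. In NIR against PA, 2 fell and 0 rose. What these calls mean for TGF-beta signalling was not tested. Skil, a repressor of SMAD signalling, averaged 8.10 in IR, 7.09 in NIR and 7.27 in PA, with an IR minus NIR difference of 1.02 (limma adjusted p = 0.00073). With probe sets averaged per gene, this Skil difference was 0.47 (limma adjusted p = 0.0282), and the Skil rise in IR against PA no longer passed (0.37, limma adjusted p = 0.0890). Id1, an inhibitor of helix-loop-helix factors, averaged 7.73 in IR, 7.10 in NIR and 8.18 in PA, and its fall in NIR against PA by 1.08 had a limma adjusted p of 0.000116. The single fall in IR against PA was also Id1 (-0.45, limma adjusted p = 0.0432). This fall no longer passed when any array other than IR3 was left out, with limma adjusted p reaching 0.221. Nor did it pass with the replicate block or on the compared arrays alone (limma adjusted p = 0.0775 and 0.102). Testing every probe set and median centring ended this call too (limma adjusted p = 0.0582 and 0.0644). The medians of this list were 0.17, 0.091 and -0.096.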

How the data were processed

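The values the authors deposited are log2 signals from RMA, as named in the submitters' processing notes. Its version and settings are not given in the sources used here. The 45100 probe sets ranged from 2.47 to 14.01 and were used without further scaling. RNA was isolated on Qiagen RNeasy columns and labelled by the usual Affymetrix procedure, per the labels' protocols. Gene names came from the platform annotation, updated through Entrez identifiers, which matched 34740 of 34944 single-gene probe sets.

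Tests between groups used limma 3.58.1 (R 4.3.3; lmFit, then eBayes; 2-sided, a mean per group, all 9 arrays in 1 fit, 6 residual degrees of freedom), with Benjamini-Hochberg adjustment over 18194 genes or, for probe sets, over 34944. The procedure was tested on simulated data. Intervals are 95% limma intervals. The number of arrays limits precision.

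The members, lists and alternatives were chosen with earlier results of these data known. Named genes were all members, called maturation factors and up to 4 genes of each other list. Genes resembling a called member were to be named, and none was called. Proteins were not compared, as no protein table was used here. Alternatives were a filter on dim probe sets, averaging probe sets of a gene, omitting those whose suffix marks several transcripts, every probe set, median centring, quantile normalization, trend and robust eBayes, array weights, the compared arrays alone, a replicate block, leaving out each array, and stricter thresholds. Plots were made with Python 3.11.15 and matplotlib 3.10.9.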

Additional observations from a re-analysis of the deposited data

How the results depend on the processing

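The count of called members was 0 in each comparison under all 21 alternatives run, with a lowest limma adjusted p of 0.115 in IR minus NIR (P4ha3, array weights), 0.144 in IR minus PA (P4ha2, array weights) and 0.253 in NIR minus PA (Loxl1, without NIR3). P4ha2, Lox and Loxl1 gave no value under the filter on dim probe sets. Over all genes, leaving out single arrays gave 77 to 271 calls in IR minus NIR, 99 to 214 in IR minus PA and 121 to 370 in NIR minus PA, beside 300, 192 and 236. The other settings gave 11 (compared arrays alone) to 390, 100 to 467 and 108 to 382. With the replicate number as a block, 0 members were called, and 230, 164 and 203 genes overall. Same-numbered arrays of different groups had deviations correlated from -0.20 to 0.097, so the numbers were not taken to pair arrays.

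Of 504 values of members under alternatives, 480 kept their direction and stayed uncalled, and 24 turned in direction, all uncalled; the cause was not tested. Leaving out single arrays gave ranges across 0 for 10 differences. In IR minus NIR these were -0.00254 (without NIR1) to 0.169 for Lox and -0.145 to 0.0519 (without NIR2) for Loxl1. In IR minus PA they were -0.0941 to 0.0572 (without PA3) for Lox, -0.166 (without IR3) to 0.332 for Plod1, -0.0229 (without IR3) to 0.0626 for Loxl3 and -0.0591 (without IR3) to 0.114 for P4ha1. In NIR minus PA they were -0.068 to 0.0182 (without NIR1) for P4ha2, -0.0802 (without NIR2) to 0.135 for Plod3, -0.0579 (without PA2) to 0.109 for Plod2 and -0.0546 to 0.0148 (without NIR1) for Loxl3. With probe sets averaged per gene, Lox turned to 0.0224 in IR minus PA and Plod2 to -0.0143 in NIR minus PA, and with median centring Plod2 turned to -0.00409 in NIR minus PA. With array weights, Loxl1 turned to 0.0541 in IR minus NIR, and P4ha1 to -0.0158, Lox to 0.0329 and Loxl3 to -0.00286 in IR minus PA.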
